A study of Mus musculus with 6 samples.

Results

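Tex19.1 and Mov10l1 are mouse genes of germline transposon defence, and Mov10 is the paralog of Mov10l1 that somatic tissues use. The 3 genes were taken by symbol from the 14162 genes of the series, and each matched 1 Ensembl identifier (ENSMUSG00000039329, ENSMUSG00000015365 and ENSMUSG00000002227). Tex19.1 and Mov10l1 were chosen by their read counts in these same libraries, high in mutant and low in control lungs, so that difference is given as a description without a test. Mov10 was added for its relation to Mov10l1.

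RNA came from mouse embryonic lung at E12.5, when the airways are branching, and gave 3 libraries labelled ShhCre-Dnmt1KO and 3 labelled Wild-type Control, which the labels' protocol calls littermates, here Dnmt1KO and WT. Dnmt1 encodes the methyltransferase that copies DNA methylation onto new strands. Cre made from Shh acts in the endoderm that forms the airway lining, so the mesenchyme, vessels and blood in the same lung keep the gene. The labels name Cre in the Dnmt1KO group only, so its own effect and that of losing Dnmt1 cannot be told apart. They do not say whether each library is a separate embryo or how many lungs it holds, so p-values here reflect only how these samples vary, which may be technical.

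Retrotransposons are copied through RNA, and germ cells hold them back with a set of proteins that other tissues keep silent. In male germ cells MOV10L1, an RNA helicase, binds precursors of piRNAs, the small RNAs that guide PIWI proteins to transposon transcripts. TEX19.1, found in germ cells, pluripotent cells and placenta, restrains LINE-1 elements and works with the ubiquitin ligase UBR2. MOV10 is a broadly expressed helicase that binds messenger RNA with AGO2 and UPF1 and also restrains LINE-1. Tex19.1 is a textbook example of a promoter kept silent by DNA methylation in somatic cells.

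Promoter windows are shown because the deleted gene maintains methylation of CG pairs, which capitals mark. Each runs from 250 bases before to 50 bases after the start of the gene, on the strand of the gene, in RefSeq's GRCm38.p6, which is a later build than the mm9 of the files. Tex19.2 is the neighbouring paralog of Tex19.1.
Tex19.1, chr11:121145893-121146192, plus strand: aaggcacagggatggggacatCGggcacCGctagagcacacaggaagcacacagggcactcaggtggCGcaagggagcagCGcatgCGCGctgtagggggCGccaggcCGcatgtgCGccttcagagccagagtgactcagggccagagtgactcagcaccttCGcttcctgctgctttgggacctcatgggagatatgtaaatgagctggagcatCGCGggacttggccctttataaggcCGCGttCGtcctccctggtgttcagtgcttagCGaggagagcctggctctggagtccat
Tex19.2, chr11:121118628-121118927, minus strand: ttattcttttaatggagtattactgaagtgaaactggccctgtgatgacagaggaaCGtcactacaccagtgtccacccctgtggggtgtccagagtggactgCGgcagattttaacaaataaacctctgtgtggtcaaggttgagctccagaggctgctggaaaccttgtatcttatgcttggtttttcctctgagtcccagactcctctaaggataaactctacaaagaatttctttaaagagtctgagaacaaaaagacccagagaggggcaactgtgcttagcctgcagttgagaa
Mov10l1, chr15:88982744-88983043, plus strand: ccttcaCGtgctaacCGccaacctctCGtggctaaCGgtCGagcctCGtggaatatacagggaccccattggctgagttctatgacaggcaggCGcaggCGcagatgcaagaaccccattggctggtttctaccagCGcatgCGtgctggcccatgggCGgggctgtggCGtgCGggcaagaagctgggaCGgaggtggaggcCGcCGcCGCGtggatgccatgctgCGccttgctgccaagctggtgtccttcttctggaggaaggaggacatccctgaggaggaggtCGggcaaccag
Mov10, chr3:104818514-104818813, minus strand: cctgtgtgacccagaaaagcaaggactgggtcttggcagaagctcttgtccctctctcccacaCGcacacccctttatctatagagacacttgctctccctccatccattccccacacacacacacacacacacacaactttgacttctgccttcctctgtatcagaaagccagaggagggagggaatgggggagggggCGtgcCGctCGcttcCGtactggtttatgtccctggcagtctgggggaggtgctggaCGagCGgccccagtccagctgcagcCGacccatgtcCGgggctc

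The Tex19.1 window held 16 CG pairs and the Mov10l1 window 20, against 2 in the Tex19.2 window. Mov10 had 9 in the window shown and 13 in a second, overlapping one. Over all 32851 windows of 300 bases in that table the median was 7, and 67.0% of windows held fewer than Tex19.1, 73.5% fewer than Mov10l1 and 14.1% fewer than Tex19.2. The 17 windows of 16 other germline genes held 10 to 33, with a median of 18. The E-box CACGTG, which reads the same on both strands, occurred once in the Mov10l1 window, with its first base at -246 from the start, and 7.15% of all windows hold it. The E2F motif GCGGGAA was searched on both strands, was in none of the 5 windows and is in 4.60% of all windows. A match of letters is a description and not a binding site, and methylation was not measured in these libraries.

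The deposited values are log2 values from which whole reads per gene could be recovered, and the recovered totals ran from 18192629 to 25597662 reads per library. Dnmt1 itself was at 15.43 ± 0.13 in Dnmt1KO and 15.74 ± 0.02 in WT (log2 value, SD, n = 3 each), and the groups did not overlap but missed limma's threshold (log2 difference -0.31 ± 0.09 SE, adjusted p = 0.507). Nkx2-1, the transcription factor that defines lung endoderm, had 2252 to 3601 reads in the Dnmt1KO libraries and 3807 to 4215 in the WT libraries. The tissue label thus had its marker throughout. Once scaled for depth, Nkx2-1 was at 13.80 ± 0.31 in Dnmt1KO and 14.12 ± 0.10 in WT (log2 value, SD), and the groups overlapped (log2 difference -0.32 ± 0.15 SE). Dnmt1KO replicate 1 stood apart in sex, with 3 reads over Ddx3y, Eif2s3y, Kdm5d and Uty of the Y chromosome, against 4155 to 5207 in each other library. Dnmt1KO replicate 2 stood apart in heart muscle genes, described with Mov10l1. In whole lungs, fewer cells of a type and less RNA per cell cannot be told apart.

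Tex19.1 was clearly transcribed in all 3 mutant lungs and almost silent in control lungs. Reads of the gene numbered 380, 280 and 547 in Dnmt1KO replicates 1, 2 and 3, against 3, 4 and 1 in WT replicates 1, 2 and 3. The groups were far apart, and replicate 3 was the highest of the mutants. In RPKM, reads per kilobase of exon (GRCm38) and per 1000000 recovered reads, Dnmt1KO lungs averaged 10.8 ± 3.24 and WT lungs 0.0631 ± 0.0403 (SD, n = 3 each). Among the genes of the table, Tex19.1 ranked by RPKM above 62.3%, 50.7% and 68.3% of genes in Dnmt1KO lungs and above 0.401%, 1.87% and 0.215% in WT lungs. In mutant lungs it was thus a gene of middling abundance for a whole organ of which the Cre lineage is a part.

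The ratio of scaled Tex19.1 reads between the groups was 175, with an exact 95% counting interval of 88.3 to 405 that covers counting error only. On the deposited scale the difference was 7.29 ± 0.48 (log2, SE), and it rests on 8 WT reads and on the offset of 0.5 reads in the deposited values. With an offset of 2 reads it was 6.65.

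Mov10l1 was also present in every mutant lung, at a lower level than Tex19.1. It was read 62, 59 and 160 times in Dnmt1KO lungs, against 5, 0 and 0 times in WT lungs. Replicate 3 again held the most, and here it stood well above the other mutants, at 2.40 times their mean on the authors' scale. The RPKM was 0.815, 0.701 and 1.82 in Dnmt1KO, against 0.0467, 0 and 0 in WT, where a count of 0 allows up to 0.0348 in WT replicate 2 and 0.0309 in WT replicate 3 (3 reads). By RPKM it ranked above 11.6%, 10.5% and 22.2% of genes in the Dnmt1KO libraries, so it stayed among the rare transcripts of the tables.

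For Mov10l1 the ratio of scaled reads was 65.0 (exact 95% counting interval 27.5 to 202), and the log2 difference was 6.45 ± 0.91 (SE). All 5 WT reads were in replicate 1, without which the difference was 7.52. Because 2 WT libraries had no reads, the fitted difference depends on the offset and was 5.03 with an offset of 2 reads.

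Mov10 gave the contrast within the helicase pair, with levels that overlapped between the groups. Its reads came to 2614, 2909 and 2757 in Dnmt1KO lungs and 3823, 2767 and 2985 in WT lungs. Once scaled, these were 13.84, 13.85 and 13.70 in Dnmt1KO and 13.90, 13.77 and 13.68 in WT (log2 values), and the groups overlapped. The difference was 0.0098 ± 0.087 (log2, SE, limma adjusted p = 0.9999 over all genes), with a 95% interval from -0.19 to 0.21, or 87.7% to 116% of the WT level. Permuting the 6 libraries exactly gave a two-sided p of 0.9, where 0.1 is the smallest that 3 libraries against 3 allow. Its sign turned with several settings, without a call in any. In RPKM, Mov10 averaged 24.9 ± 1.35 over Dnmt1KO lungs and 24.5 ± 1.90 over WT lungs (SD, n = 3 each), above 80.5% to 84.2% of genes in every library.

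**Figure D1:**
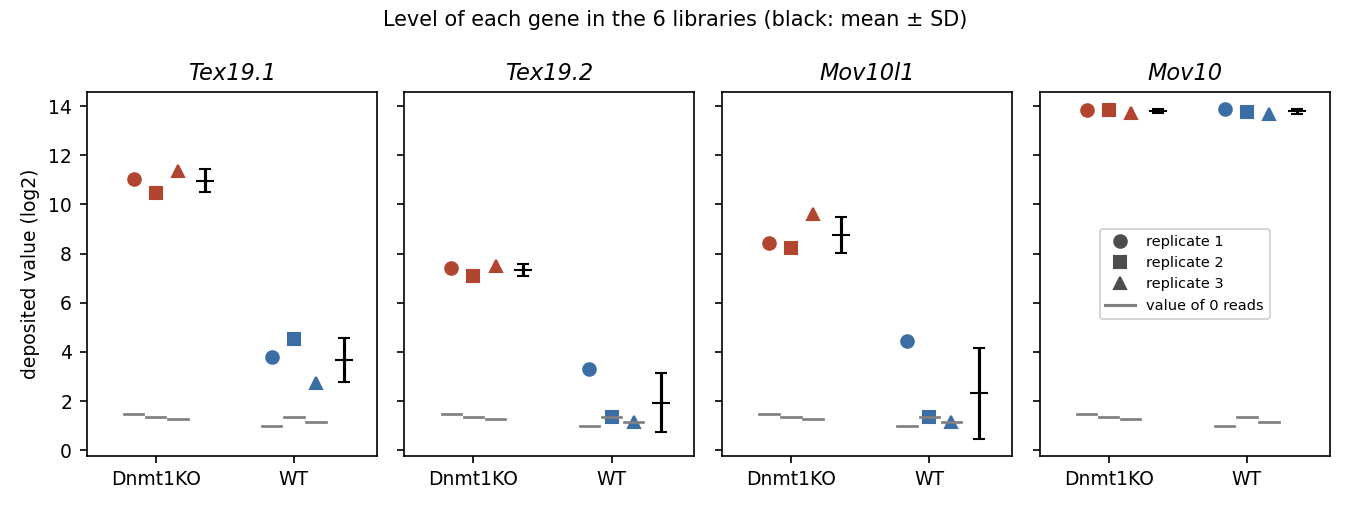
Deposited log2 value (vertical axis) of 4 genes in Dnmt1KO (left) and WT (right), with symbols for replicates 1 to 3, a grey line at the value that 0 reads have in that library and, in black, the mean ± SD. Tex19.1, Tex19.2 and Mov10l1 sit at 7.07 or more in all Dnmt1KO libraries and at 4.51 or less in all WT libraries, while Mov10 stays between 13.68 and 13.90 in all 6.

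The order of the RPKM levels was Mov10, then Tex19.1, then Mov10l1 in each Dnmt1KO library. Tex19.1 reached 43.5%, 28.8% and 59.4% of the Mov10 level there, against 0.235%, 0.433% and 0.1% in WT lungs. Mov10l1 reached 3.18%, 2.72% and 7.78% of the Mov10 level, against 0.175% in WT replicate 1 and no reads in the other two. In every mutant lung the somatic helicase therefore remained the far more abundant transcript of the pair. Tex19.1 exceeded Mov10l1 by 13.7, 10.6 and 7.64 times in Dnmt1KO replicates 1, 2 and 3 (ratio of RPKM). In WT lungs the order of these 2 cannot be read, since both are at or near the level of 3 reads.

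Cre made from Shh acts in the endoderm, so the levels were also set against 15 epithelium markers, among them Epcam, Cdh1 and Krt8. All 15 were measured, none passed the test, and their summed level was 862, 701 and 1091 RPM (reads per 1000000 recovered reads) in Dnmt1KO lungs and 778, 985 and 930 in WT lungs. Every marker was highest, among the mutants, in replicate 3, as were 37.6% of all genes. Per 1000 reads of these markers, Tex19.1 had 24.2, 19.8 and 23.8 reads in Dnmt1KO lungs and 0.151, 0.197 and 0.0464 in WT lungs. On this measure Tex19.1 in replicate 3 lay between the other mutants. Mov10l1 had 3.95, 4.18 and 6.97 reads per 1000 in Dnmt1KO, and replicate 3 was still the highest. The part of epithelial content in the spread between mutant lungs was not tested.

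**Figure D2:**
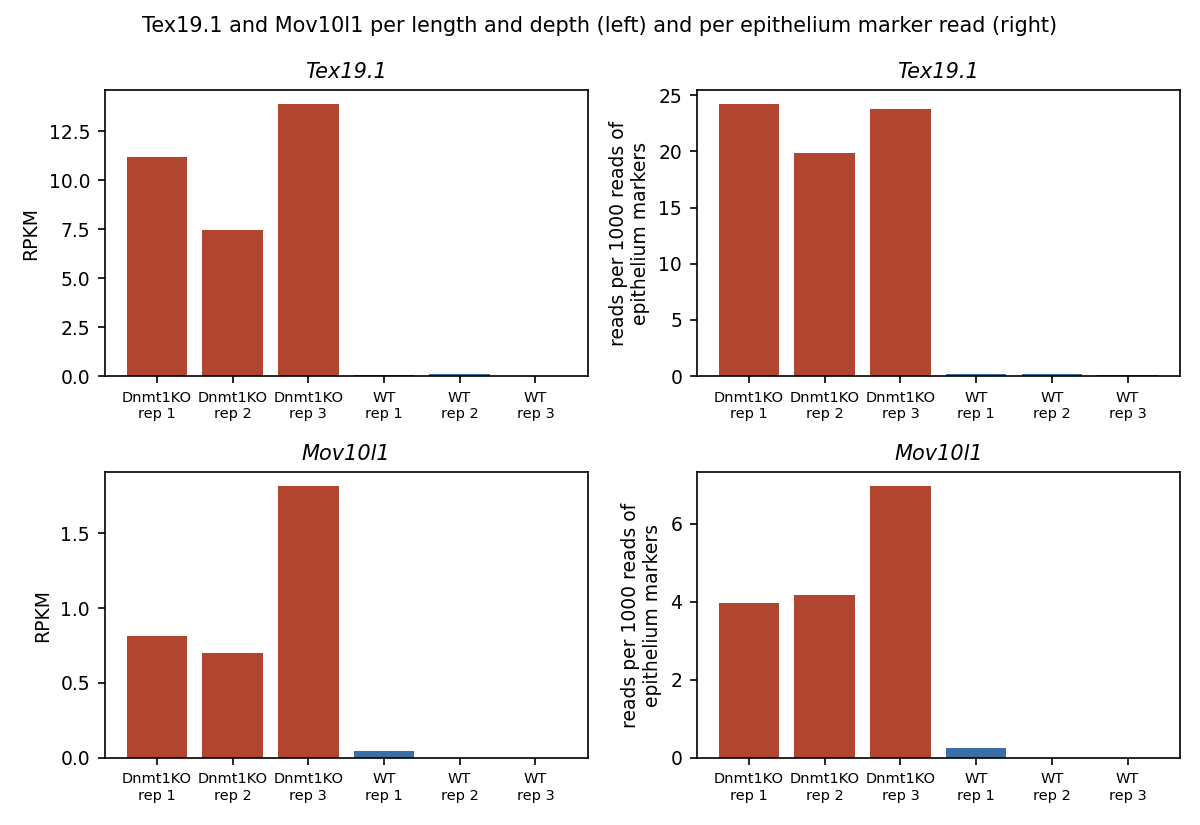
Bars give Tex19.1 (top) and Mov10l1 (bottom) in each library, as RPKM (left) and as reads per 1000 reads of 15 epithelium markers (right), with Dnmt1KO in red and WT in blue. The Tex19.1 bars of the 3 Dnmt1KO libraries lie between 19.8 and 24.2 on the right-hand scale, while the Mov10l1 bar of replicate 3 stands at 6.97 above 3.95 and 4.18.

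Heart muscle also makes a short MOV10L1 isoform in mice, so heart markers are set beside this gene. Of 15 markers 11 were measured, none passed the test, and Myl3, Tnnc1, Nppa and Nppb were not analysed here. Their sum was 70.6, 595 and 139 RPM in Dnmt1KO replicates 1, 2 and 3 and 119, 79.6 and 81.5 in the WT libraries. Dnmt1KO replicate 2, with the most heart marker reads, had 2293 reads of Myh6 and 59 of Mov10l1, the fewest of the mutants. WT replicate 1, the control with the highest heart sum, held all 5 WT reads of Mov10l1. Without Dnmt1KO replicate 2 the log2 difference of Mov10l1 was 6.71, and without Dnmt1KO replicate 1, the library with few Y reads, it was 6.61. Gene totals do not show which isoform the reads came from.

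**Figure D3:**
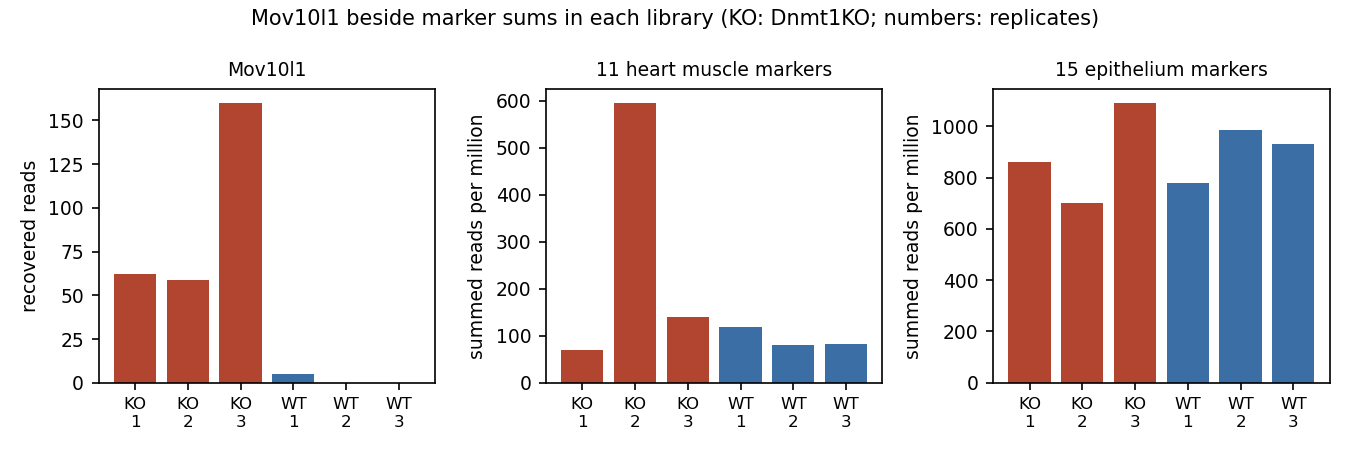
Bars give the recovered reads of Mov10l1 (left), the summed RPM of 11 heart muscle markers (middle) and of 15 epithelium markers (right) in each library. The heart sum peaks at 595 in Dnmt1KO replicate 2, whereas Mov10l1 peaks at 160 reads in Dnmt1KO replicate 3, which also has the highest epithelium sum, 1091.

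Cell types that express Tex19.1 in the embryo were checked by their markers. Of 13 markers of primordial germ cells 8 were measured and none passed the test, with 6 positive and 2 negative log2 differences, from -1.17 for Sall4 to 0.32 for Kit, and a median of 0.12. Nanos3 and Dnd1, RNA-binding proteins of those cells, had 39 to 76 and 62 to 81 reads in Dnmt1KO, against 45 to 73 and 70 to 116 in WT, so the groups overlapped in both. Sall4, a transcription factor of pluripotent and germ cells, had 58, 35 and 42 reads in Dnmt1KO lungs and more, 146, 111 and 95, in WT lungs (limma adjusted p = 0.277). The summed level was 72.7 to 103 RPM in Dnmt1KO and 74.1 to 82.9 in WT. Kit alone gave 1138, 1185 and 767 of the 1876, 1834 and 1529 summed reads in Dnmt1KO. In WT it gave 1036, 774 and 1024 of 1907, 1526 and 1922, so this sum mainly follows Kit. Pou5f1, Nanog, Dppa3, Prdm14 and Utf1 were not analysed here. Of 11 trophoblast markers 4 were measured, none passed, and their sums were 7.65 to 11.4 in Dnmt1KO and 6.92 to 8.15 in WT. Elf5 alone gave 105, 82 and 134 of the 207, 154 and 195 summed reads in Dnmt1KO. In WT it gave 72, 94 and 115 of 177, 155 and 189. Tfap2c is on both the trophoblast and the germ cell list. No measured marker of either list was at 0. Erythroid genes were read as markers of the blood in the lungs. Of 13 such genes 12 were measured and none passed, but all 12 differences were positive, with a median of 0.51. The sums were 2050 to 3595 RPM in Dnmt1KO and 1514 to 2189 in WT, with replicate 3 highest among the mutants. The part of these cell types in the levels of Tex19.1 and Mov10l1 was not tested.

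Tex19.2, the paralog next to Tex19.1 on chromosome 11, was also present in every mutant lung. It was read 30, 26 and 37 times in Dnmt1KO lungs, against 2, 0 and 0 times in WT lungs, and the groups did not overlap. With 2 WT reads it met the lowest total in the table, 60 reads over the 6 libraries, only through the mutants, so its difference is a description and the p adds no support. The log2 difference was 5.40 ± 0.77 (SE, limma adjusted p = 0.0340) and the ratio of scaled reads 53.8 (exact 95% counting interval 14.5 to 451). In RPKM it averaged 0.766 ± 0.119 over Dnmt1KO lungs and 0.0127 ± 0.0221 over WT lungs (SD, n = 3 each), and Tex19.1 was 13.8, 11.8 and 16.2 times as high in the mutant libraries. Of the 50-base windows in annotated Tex19.1 transcripts, 2.67% also occur in Tex19.2, so some of the few Tex19.2 reads may be shared. The call held without WT replicate 1 and was lost without any other library, with adjusted p from 0.00811 to 0.267, and it was also lost with quantile normalization (0.0675). No such window of Mov10l1 occurs in another gene, and 5.22% of those of Mov10 occur in 1 other gene, Gm7357.

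The genes around each member were read in the same fit. Of the 12 nearest measured genes, 2 on each side of each member in the GENCODE M21 order, Tex19.2 alone was called, against 0.282% of all genes called higher in Dnmt1KO. Tex19.2 entered the table only through its mutant reads, so that call carries no support. The other 11 had log2 differences from -0.13 to 0.35. Beside the Tex19 pair lie Csnk1d, a casein kinase gene (-0.13 ± 0.07), Ogfod3 (-0.035 ± 0.22) and Hexdc (-0.012 ± 0.10). Mov10l1 lies between the kinase gene Pim3 (-0.094 ± 0.086) and the pannexin gene Panx2 (0.29 ± 0.33), with Creld2 (0.12 ± 0.13) and Trabd (-0.011 ± 0.082) beyond them. Mov10 lies between Rhoc, a small GTPase gene (-0.053 ± 0.11), and Capza1, for an actin-capping protein (0.012 ± 0.13), with Ppm1j (0.35 ± 0.25) and St7l (-0.034 ± 0.11) beyond (log2 difference ± SE throughout).

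The other genes of the piRNA pathway did not pass the test. On a list of 28 genes 17 were measured, none was called in either direction, 16 had a positive difference and the median was 0.32, against -0.0001 over all genes. Over all 14162 genes the calls were 0.282% for higher in Dnmt1KO and 0.00706% for lower. The lowest total of any gene in the table was 60 reads over the 6 libraries, so a gene silent in WT could enter only through the mutants, and counts over these lists are a description. In 6 of the 17 every mutant lay above every control, against 4.79% of all genes, and in none did every mutant lie below, against 3.99%. Fkbp6, a co-chaperone of piRNA biogenesis, was read 52, 31 and 59 times in Dnmt1KO lungs, against 2, 0 and 4 times in WT lungs (log2 difference 4.90 ± 0.78 SE, adjusted p = 0.0575). It passed without WT replicate 2 (adjusted p = 0.0396), and without any other library it did not.

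Piwil2, the PIWI protein MILI, was read 64, 31 and 58 times in Dnmt1KO lungs, against 13, 11 and 11 times in WT lungs (2.23 ± 0.38, limma adjusted p = 0.0764). Gpat2, a mitochondrial acyltransferase that piRNA production needs, reached 221, 151 and 347 reads in Dnmt1KO lungs, against 41, 44 and 98 in WT lungs (2.21 ± 0.40, adjusted p = 0.0898). The groups of these 3 genes did not overlap, which follows in part from naming them by p. The germ cell helicase Ddx4 stood at 1.48 ± 0.46 and Tex15, needed for piRNA-directed methylation, at 0.72 ± 0.14 (adjusted p = 0.612 and 0.119). Asz1 (0.32 ± 0.37), Tdrd1 (0.20 ± 0.20) and Pld6 (-0.28 ± 0.27), genes for proteins at the mitochondria of germ cells, did not pass. These 3 had 82 to 132, 104 to 180 and 29 to 42 reads in Dnmt1KO, against 56 to 126, 142 to 168 and 47 to 57 in WT. Those reads are not scaled for depth, and once scaled the groups overlapped for each of the 3.

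No gene for the somatic factors around Mov10 passed the test, which 0.29% of all genes passed in either direction. At so small a share, a short list without calls is not a result about its genes. Of 17 genes that restrict or degrade retroelement RNA and DNA in somatic cells 16 were measured, with a median of 0.025 and differences from -0.13 to 0.70. The highest was Apobec3, a cytidine deaminase, at 208, 147 and 235 reads in Dnmt1KO lungs and 146, 119 and 147 in WT lungs (0.70 ± 0.20, limma adjusted p = 0.513), with Zc3hav1 (0.41 ± 0.26) and Tut4 (0.082 ± 0.076) next by p. All 15 genes of the list of Mov10 partners were measured, with a median of -0.042. Among them were Ago1 (-0.19 ± 0.09), Fmr1 (0.11 ± 0.07), Ago3 (0.19 ± 0.14) and Upf1 (-0.11 ± 0.11). Ago2 was at -0.080, with a 95% interval from -0.47 to 0.31.

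None of the 9 Upf1-like helicases, the family that holds Mov10 and Mov10l1, passed, against 0.29% of all genes in either direction. That count says little about so short a list. Their differences ran from -0.18 for Zgrf1 to 0.090 for Helz2. Dna2 was at -0.096 ± 0.086. Ubr2, the partner of TEX19.1, was at 0.0018 ± 0.11 (95% interval -0.24 to 0.25). On the list that holds Ubr2, 1 of 9 genes was called, against 0.282% of all genes. It is Tex19.2, whose call was lost in 5 of the 6 fits without a library. Since Tex19.2 entered the table only through the mutants, this count is a description without support. The ubiquitin enzymes Ube2b (0.089 ± 0.089), Ube2a (0.051 ± 0.11) and Ubr7 (-0.036 ± 0.086) had the next smallest p. A p that misses the threshold does not show that these genes are equal, and the intervals given for Mov10, Ago2 and Ubr2 leave room for small changes.

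Other germline genes were set beside the pair. Of 27 on the list 17 were measured, 7 were called higher and none lower, against 0.282% and 0.00706% of all genes, and the median log2 difference was 2.72. With voom 1 was called, Rpl10l, and leaving out any 1 library gave 4 to 6. Those called were Dazl, Sohlh2, Stra8, Tuba3a, Tuba3b, Syce1 and Rpl10l, genes already known to be high in these libraries. Of the 17, 8 had fewer than 10 reads in every WT library, and the minimum of 60 reads let such genes in only through high mutant values, so these counts carry no support. In 12 of the 17 Dnmt1KO replicate 3 was the highest mutant, against 37.6% of all genes. The excess of replicate 3 over the mean of replicates 1 and 2 was 3.42-fold for Tuba3b, 2.59 for Tuba3a, 2.57 for Syce1, 2.52 for Stra8, 2.43 for Dazl, 1.78 for Sohlh2 and 1.55 for Rpl10l, on the authors' scale. Of the uncalled genes named here it was 2.84 for Slc25a31, 1.36 for Taf7l and 0.929 for Tex11. Tex19.1 had 1.49, Mov10l1 2.40, the summed epithelium markers 1.40 and Mov10 0.909. Taf7l (2.66 ± 0.45), Slc25a31 (2.72 ± 0.51) and Tex11 (3.26 ± 0.64) did not pass (limma adjusted p = 0.0760, 0.117 and 0.130).

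**Figure D4:**
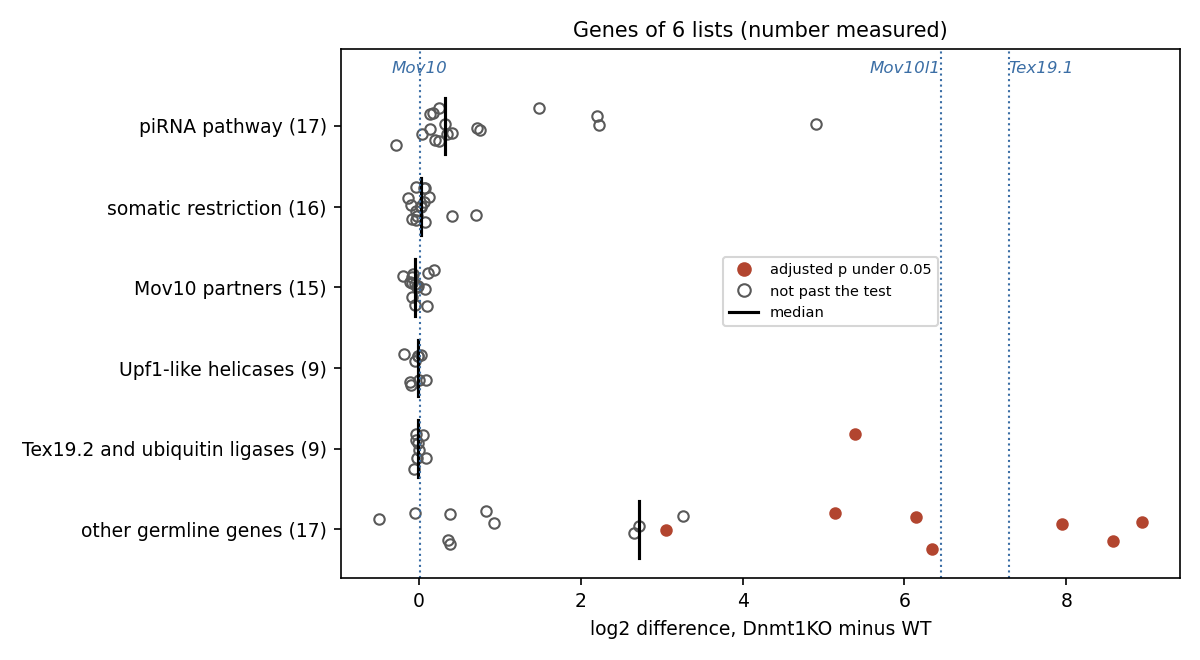
Each point is the log2 difference, Dnmt1KO minus WT, of 1 measured gene in 6 lists, filled where the limma adjusted p is under 0.05, with a black bar at the median and dotted lines at Mov10, Mov10l1 and Tex19.1. Points of the somatic lists lie near 0, and the other germline genes spread up to 8.93. Tex19.2, the paralog of Tex19.1 and not a ubiquitin enzyme, is a filled point at 5.40, apart from the ubiquitin enzyme genes on its list.

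The genes whose pattern was most like each member were taken by Pearson's r of the log2 values over the 6 libraries, which fall into the 2 genotypes, so r is high for many genes that differ between them. For Tex19.1 these were Cnbd2 (r = 0.999), Rhox2a (0.997), 8030474K03Rik (0.997), Rpl39l (0.997) and Slc9b1 (0.996). Their levels differ widely. Rpl39l was read 158, 115 and 258 times in Dnmt1KO lungs, against 3, 3 and 2 times in WT lungs. Cnbd2 was read 42, 45 and 49 times in Dnmt1KO lungs, against 38, 32 and 33 times in WT lungs. For Mov10l1 the nearest were Noct (r = 0.995), Tex19.2 (0.993), Cyb561a3 (0.989), Rpl10l (0.984) and 6820408C15Rik (0.980), which share its higher value in WT replicate 1 than in the other controls. For Mov10l1, Tex19.2 and Rpl10l that value rests on 5, 2 and 1 reads. These 3 genes had 0 reads in WT replicates 2 and 3, where the offset alone sets the value, so their likeness rests partly on it. For Mov10, where differences between libraries are small, they were Efnb2 (r = 0.997), Slc35e2 (0.996), Fam171b (0.995), Dcun1d3 (0.993) and Klhl8 (0.988).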

How the data were processed

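RNA-seq values of 6 mouse lung libraries, 3 Dnmt1KO and 3 WT by the titles in the labels, were used as deposited by the authors: 1 table of log2 values per library. STAR, limma and mm9 are listed in the submitters' processing notes, with no role. How reads were counted, filtered and scaled, and whether strand was used, is not given in the sources used here. Raising 2 to each value gave a whole number of reads plus 0.5, times 1 constant per library, for 100% of 14162 genes within 1e-06 reads. The recovered totals of reads were 18192629, 20126806 and 21046831 for Dnmt1KO lungs and 25597662, 20599736 and 23181312 for WT lungs.

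Symbols, exon lengths and gene order came from GENCODE M21 (GRCm38), which named 13967 identifiers and left 195 unnamed. RPKM used the union of exons and the recovered totals. With limma 3.58.1 (R 4.3.3), a model was fitted to the deposited values of all genes with genotype as the only term, trend and robust moderation and Benjamini-Hochberg adjustment at 0.05. On simulated data of 14162 genes with 200 changed genes the share recovered was 75.3% at a 1.5-fold change, 88.7% at 2-fold and 100% at 4-fold, and 5.04% of calls were false. In the fit to the deposited values, Fkbp6, Piwil2 and Gpat2 stood at 2996%, 467.7% and 461.9% of the WT level without a call. An uncalled list gene can thus differ by more than 4-fold. The share recovered among genes such as these was not tested. Counting intervals are exact Clopper-Pearson at 95% and cover counting error only.

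The members and lists were chosen with earlier results of these data known. Named were the members, Dnmt1, called list genes and up to 3 others per list by p, the 5 most similar genes and the 2 nearest measured genes on each side. Other genes named from the lists, and all marker genes, were chosen after their values were seen. Alternatives were a replicate block, removal of the lowest 25% of genes, quantile normalization, median centring, epithelium markers or recovered totals as scale, an offset of 2 reads, limma without trend or robust estimation, sample weights, voom and leaving out each library.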

Additional observations from a re-analysis of the deposited data

How the results depend on the processing

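The log2 difference of Tex19.1 moved by more than the spread between replicates only with quantile normalization (6.25), and that of Mov10l1 only with an offset of 2 reads (5.03). Leaving out each library gave 6.81 to 7.70 for Tex19.1, 5.86 to 7.52 for Mov10l1 and -0.041 to 0.067 for Mov10. The Mov10 difference was also negative against epithelium markers (-0.006). With the lowest 25% of genes removed Tex19.1 and Mov10l1 were not among the genes tested, so no value was had. No setting moved the median of all genes by more than 0.1.

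Of all genes, 40 were called higher and 1 lower. The numbers higher were 26 with the replicate block, 0 without the lowest 25% of genes, 109 against epithelium markers and 24 with voom, and leaving out each library gave 15 to 42. The numbers lower were 0 with the replicate block, 0 without the lowest 25%, 15 against epithelium markers, 0 without trend and robust estimation and 12 with sample weights, and 0 to 17 on leaving out each library. Calls on the piRNA list numbered 1 with the replicate block (Gpat2), 3 against epithelium markers, 1 with an offset of 2 reads (Fkbp6) and 0 to 1 as each library was left out. On the list with Tex19.2 they numbered 0 with the replicate block (limma adjusted p = 0.0839 for Tex19.2) and 0 with quantile normalization (0.0675). That list had 0 to 1 as each library was left out. Of the other germline genes 1 was called with voom, and leaving out each library gave 4 to 6. Both lists had 0 calls with the lowest 25% of genes removed. Tex19.2 and the 7 germline genes called in the main fit were not among the genes tested there. Those counts of 0 are therefore not calls lost on a retest. The causes of the other changes were not tested. The somatic restriction list, the Mov10 partners and the Upf1-like helicases had 0 calls in every setting run.

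Same-numbered libraries were not shown to be paired, since the correlations of their deviations from the group means were -0.003, -0.18 and 0.306 for replicates 1, 2 and 3. Depth limits the differences of Tex19.1, Mov10l1 and Tex19.2, which had 8, 5 and 2 WT reads in all.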
